A study of Mus musculus with 23 samples.

Results

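The transcripts described here are those of the mouse mitochondrial genome, a circular DNA of its own inside the organelle. Every row of the deposited expression table whose gene symbol begins with mt- was taken, which gave 37 of 47643 genes: 13 protein-coding genes, 2 rRNA genes and 22 tRNA genes. All 37 genes that GENCODE M21 places on the mitochondrial chromosome were in the table. Expression is given as TPM, a transcript's share of its library after scaling for gene length.

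RNA of B16F10, a mouse melanoma cell line, was sequenced from whole tumors (bulk tumors), from tumor cells sorted out of such tumors and from cells in culture. Each of these sample types had 6 libraries: 2 of control cells labelled wild type, 2 of NR2F6 KO cells made with guide sg492 and 2 of NR2F6 KO cells made with guide sg495. The guides were delivered as Cy3-labelled sgRNA with Cas9 protein and Cy3-positive cells were sorted, and whether pools or clones were then used is not given in the sources used here. Sorted tumor cells came from collagenase D digestion of the tumor followed by magnetic depletion of stromal cells. Another 5 libraries of wild type genotype, 2 labelled IgG control and 3 labelled anti-PD1, carry no sample type and are set apart below. Anti-PD1 is an antibody against a checkpoint receptor of T cells. No source used here says that libraries of a group came from separate animals or cultures, so the p-values measure the spread between these libraries, which may be technical.

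Mitochondrial DNA is transcribed from both strands into long precursors by the RNA polymerase Polrmt with the packaging factor Tfam. Excision of the tRNAs that lie between most of the other genes frees the mRNAs and rRNAs. Mtpap then adds short poly(A) tails to most of the mRNAs, and Lrpprc with Slirp keeps most of them stable. The 13 proteins are subunits of the respiratory chain and of ATP synthase, and all their partner subunits are encoded in the nucleus. Melanoma cells can draw energy from both glycolysis and respiration.

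Of the 13 mRNAs, 7 encode subunits of complex I (mt-Nd1, mt-Nd2, mt-Nd3, mt-Nd4l, mt-Nd4, mt-Nd5, mt-Nd6), 1 encodes cytochrome b of complex III (mt-Cytb), 3 encode the core of cytochrome oxidase, complex IV (mt-Co1, mt-Co2, mt-Co3), and 2 encode parts of ATP synthase, complex V (mt-Atp8, mt-Atp6). On GRCm38 the small-subunit rRNA mt-Rnr1 lies at bases 70 to 1024 of the mitochondrial chromosome and the large-subunit rRNA mt-Rnr2 at bases 1094 to 2675. Of the mRNA genes, mt-Nd6, at bases 13552 to 14070, is the one on the minus strand. Its end overlaps that of mt-Nd5, at bases 11742 to 13565, and whether the counting used strand is not given in the sources used here. Reads of mt-Nd6 and antisense reads of heavy-strand precursors therefore cannot be told apart.

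The gene order leaves little space, and some neighbours share bases or share an mRNA. The junctions below, from GENCODE M21 on GRCm38 and read on the plus strand, are shown because they mark pairs of genes whose reads overlap; capitals mark the bases that belong to both reading frames.
mt-Atp8/mt-Atp6 (43 shared bases): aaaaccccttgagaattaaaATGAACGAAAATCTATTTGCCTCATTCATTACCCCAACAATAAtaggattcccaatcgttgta
mt-Nd4l/mt-Nd4 (7 shared bases): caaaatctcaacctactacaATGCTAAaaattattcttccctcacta
mt-Atp6/mt-Co3 (1 shared base): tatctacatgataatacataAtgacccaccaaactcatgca
Within the first stretch mt-Atp6 starts on the capital ATG while mt-Atp8 is read on to its own stop codon in another frame.

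The annotated sequences of 3 genes, mt-Co3, mt-Nd4 and mt-Cytb, end on a lone T, and the poly(A) tail supplies the rest of the stop codon. Their 3' ends are printed with the last base or the annotated stop codon in capitals, beside mt-Nd1, whose annotated sequence includes a stop codon. They are shown because capture by poly(A), used to make these libraries, acts on exactly this tail. However, mt-Nd1, which ends at base 3707, shares its last bases with the tRNA gene mt-Ti, which starts at base 3706. In the same way mt-Nd2 ends at base 4951 and mt-Tw starts at base 4950. Whether the mRNAs of mt-Nd1 and mt-Nd2 keep the full stop codon once the tRNA is excised was not tested.
mt-Co3: tacgtctccatttattgatgaggatctT
mt-Nd4: ccaaaactaattacaggcctgacaataT
mt-Cytb: gaagacaaaatactaaaattatatccaT
mt-Nd1: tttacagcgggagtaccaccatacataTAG

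The 22 tRNA genes were listed at 0 TPM in all 23 libraries. They are 59 to 75 bases long, and 21 of them are shorter than the 75-base reads. The longest, mt-Tl1, which decodes leucine, and the shortest, mt-Ts2, which decodes serine, are printed to show how a whole gene fits within a single read.
mt-Tl1: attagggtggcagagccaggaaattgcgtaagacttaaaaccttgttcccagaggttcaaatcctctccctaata
mt-Ts2: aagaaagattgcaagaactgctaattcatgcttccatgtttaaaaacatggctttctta
A listed 0 of these genes thus gives no measure of mature tRNA in the cells, and the tRNAs take no further part in what follows.

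A stretch of chromosome 1 in the nucleus holds a near-identical copy of part of the mitochondrial genome, which bears on how the mRNA values can be read. A sequence search of the annotated transcripts found 31 genes outside the mitochondrial chromosome that match it, of which 24 were in the table and 8 of those were at 0 in every library. Near-identical copies, with at least 99% identity over at least 90% of the copy, numbered 7, all on the minus strand within chr1:24611535-24616197 of GRCm38, a span of 4663 bases. They are annotated as pseudogenes: Gm28439 of mt-Nd4, Gm10222 of mt-Nd4l, Gm28438 of mt-Nd3, Gm28437 of mt-Co3, Gm10925 of mt-Atp6, Gm28661 of mt-Co2 and Gm29216 of mt-Co1. The highest TPM of any other matching gene was 8.12. The following windows of 75 bases, the length of a read, are shown because a single base separates gene and copy; the base that differs is in capitals.
mt-Nd3: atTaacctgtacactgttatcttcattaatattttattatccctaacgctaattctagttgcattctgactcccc
Gm28438: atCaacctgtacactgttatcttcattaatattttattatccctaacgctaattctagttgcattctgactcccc
mt-Co1: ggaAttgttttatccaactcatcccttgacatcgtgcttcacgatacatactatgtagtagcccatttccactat
Gm29216: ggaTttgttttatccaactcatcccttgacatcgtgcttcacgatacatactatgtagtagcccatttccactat
Counted from the first base of each mitochondrial gene, these differences are T3C in mt-Nd3 and A1066T in mt-Co1. The copies of mt-Nd4, mt-Nd4l, mt-Co3, mt-Atp6 and mt-Co2 matched at every aligned base, over 876, 294, 783, 678 and 681 bases. A read within those bases cannot tell gene from copy.

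RSEM, the program that made the values, shares out reads that match more than 1 gene. The copies held 1.79% to 10.4% of all TPM in a library, and the credit differed between pairs. Of the combined level of a gene and its copy, each weighted by length, Gm28437 held 82.7% to 97.9% of the mt-Co3 pair (median 92.9%, 23 libraries). Gm10925 held 56.0% to 88.7% of the mt-Atp6 pair (median 84.2%). For mt-Co2 the share of Gm28661 ran from 0% to 82.6% (median 34.2%), and for mt-Nd3 that of Gm28438 from 0% to 38.6%. The copies of mt-Co1 and mt-Nd4 held at most 10.8% and 7.14%. Gm10222, the copy of mt-Nd4l, was at 0 in all 18 libraries of the 3 sample types but held 26.9% and 39.3% of its pair in the IgG libraries.

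**Figure D1:**
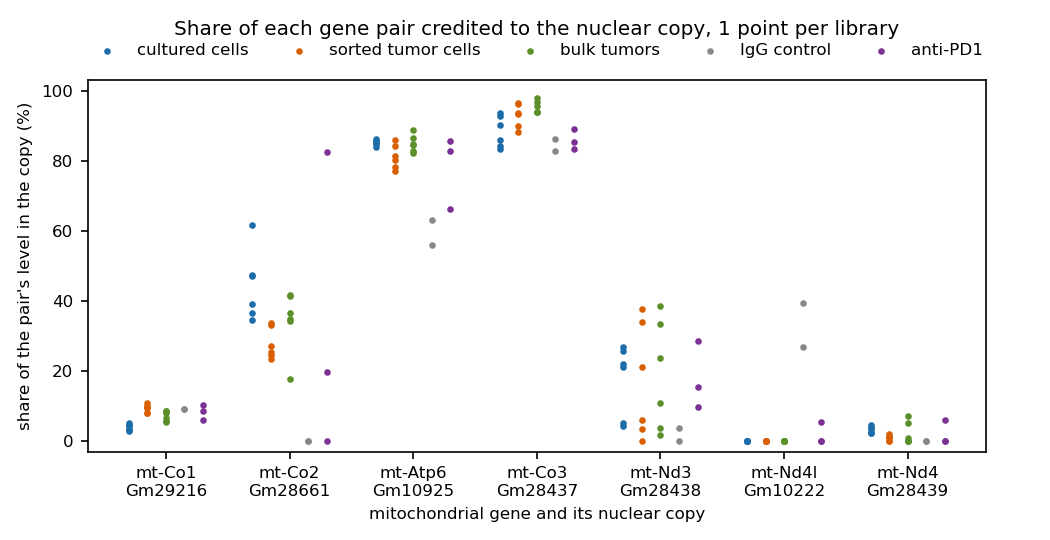
Each point is 1 of 23 libraries, coloured by sample type or treatment; the vertical axis gives the percent of a gene pair's combined, length-weighted level that was credited to the nuclear copy, for the 7 pairs on the horizontal axis. The mt-Co3 points lie at 82.7% to 97.9%, and the mt-Co2 points spread from 0% to 82.6%.

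Taken as a set, genes with a copy varied more between replicate libraries as deposited. Between libraries of the same group, the median absolute log2 difference was 0.421 for the 7 copied genes as deposited. It was 0.217 for the same genes after the copy's level was added. For the 6 genes without an annotated near-identical copy (mt-Nd1, mt-Nd2, mt-Atp8, mt-Nd5, mt-Nd6, mt-Cytb) it was 0.202. Gene by gene, mt-Co1 (0.215) and mt-Nd4 (0.221) as deposited lay within the 0.124 to 0.247 of these 6 genes. With its copy added mt-Nd4 stood at 0.294. Copies that are not annotated as transcripts were not searched. The last 43 bases of mt-Atp8 also belong to mt-Atp6 and so lie within Gm10925, which matched mt-Atp6 from its first base. An example is mt-Co2 in the anti-PD1 libraries, at 49255, 3458 and 28971 TPM, where the copy took 0%, 82.6% and 19.7% of the pair and the combined levels were 49255, 19931 and 36091. Results that involve mt-Co3, mt-Atp6 and mt-Co2 are therefore mostly given below both as deposited and with the copy added, an alternative chosen after the data had been seen.

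Mitochondrial genes took 4.73% to 6.7% of all TPM in bulk tumors (5.64% ± 0.661, SD, n = 6), 3.45% to 8.02% in sorted tumor cells (4.67% ± 1.69, n = 6) and 2.56% to 3.65% in cultured cells (3.03% ± 0.386, n = 6). Every bulk tumor library lay above every cultured library, while the sorted range overlapped both. With the nuclear copies added the ranges were 7.63% to 10.6%, 5.95% to 12.2% and 4.47% to 5.81%. A TPM is a share of a library, so a rise of these genes and a fall of the rest cannot be told apart, and in bulk tumors fewer cells of a type and less RNA per cell cannot be told apart either.

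The sorted sg495 replicate 1 library stood apart, with 8.02% of its TPM in mitochondrial genes against 3.45% to 4.73% in the other 5 sorted libraries (4.0% ± 0.467, n = 5). Its nuclear Malat1, a long RNA kept in the nucleus, was at 203 TPM, the highest of the sorted libraries. Results that rest on this library are given with and without it.

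**Figure D2:**
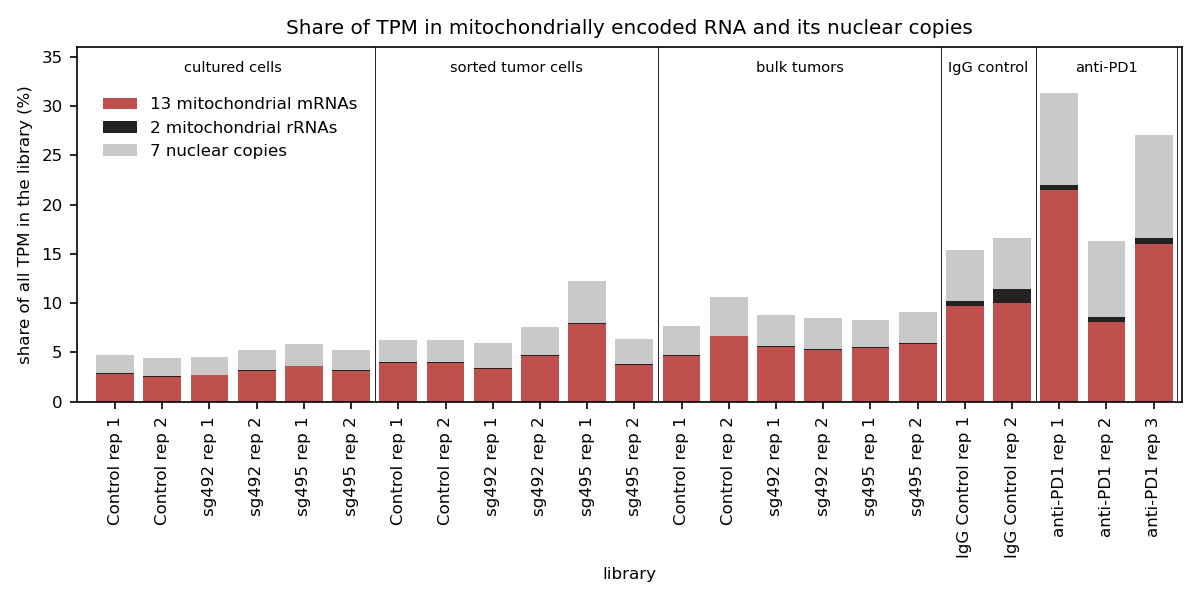
Bars give, for each of the 23 libraries, the percent of all TPM in mitochondrial genes and, stacked above, in their nuclear copies. The tallest cultured bar stands at 5.81% and the shortest bulk tumor bar at 7.63%, and the sorted sg495 replicate 1 library reaches 12.2%.

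Other facts of the series touch these values. Nr2f6, the targeted nuclear receptor gene, was at 25.8 and 25.2 TPM in the bulk control libraries, 22.3 and 23.3 with sg492 and 17.2 and 15.8 with sg495. The corresponding cultured values were 31.9 and 32.9, 26.6 and 31.5, and 18.6 and 22.4, and the sorted values 20.3 and 17.7, 19.8 and 25.7, and 10.6 and 12.2. The sg495 libraries were thus below their controls in every sample type, whereas the sg492 libraries were not in sorted cells. Summed TPM of 16 leukocyte markers was 506 to 1159 in bulk tumors, 10.3 to 20.2 in sorted cells and 5.97 to 8.8 in cultured cells, and the summed melanocyte markers lay at 15313 to 18242 across these 18 libraries.

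The levels of single genes spanned a wide range within each library. Among the 6 mRNAs without an annotated near-identical copy, mt-Atp8 and mt-Cytb were highest in all 3 sample types by median TPM, which is a level per length. mt-Nd5, mt-Nd2 and mt-Nd6 were lowest in all 3. In bulk tumors, medians fell from 7393 TPM for mt-Atp8 and 7113 for mt-Cytb through 4499 for mt-Nd1 to 2587 for mt-Nd6, 2313 for mt-Nd2 and 1952 for mt-Nd5. The first neighbours in that order overlapped, at 7197 to 9004 TPM for mt-Atp8 against 6148 to 9073 for mt-Cytb. The ranges of mt-Nd6 (2216 to 3335), mt-Nd2 (2016 to 2963) and mt-Nd5 (1529 to 2453) also overlapped one another. The summed level of both rRNAs was only 0.0614% to 0.0753% of TPM in bulk tumors, 0.0783% to 0.179% in sorted cells and 0.0532% to 0.0758% in cultured cells. Poly(A) selection retains few rRNAs, so these values are not the abundance of mitochondrial ribosomes.

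**Figure D3:**
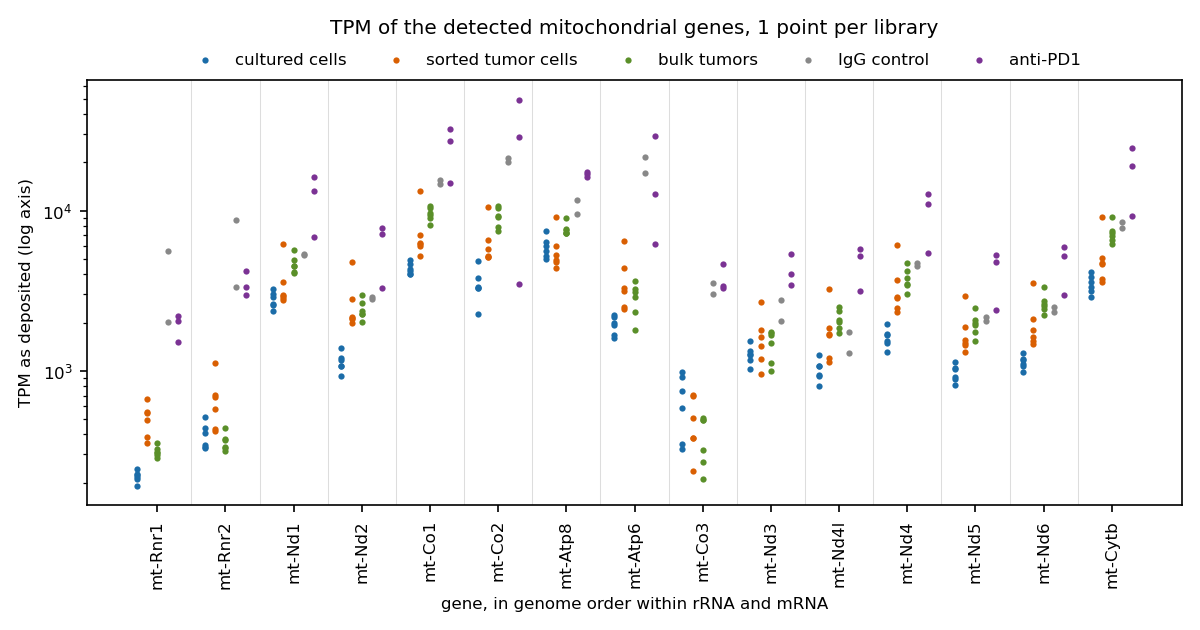
Points give the deposited TPM on a log axis of the 2 rRNAs and 13 mRNAs in each of 23 libraries, coloured by sample type or treatment. mt-Co3 sits between 209 and 978 TPM in the 18 libraries of the 3 sample types, and the mt-Rnr1 points of the IgG and anti-PD1 libraries, from 1505 to 5576, lie above those of all 18.

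Sorted tumor cells and cultured cells are both largely melanoma cells, and comparing them asks how RNA of tumor cells taken from the animal differs from that of cells grown in a dish. Of the 15 detected mitochondrial genes, 8 of 13 mRNAs and both rRNAs were higher in sorted cells, and none was lower. A gene was called by limma, fitted over all genes tested, at a Benjamini-Hochberg adjusted p under 0.05 and a fold change of at least 1.5. Of all 13152 genes tested, 14.6% were called higher and 8.99% lower. The median log2 fold change of the mRNAs was 0.76, against -0.002 for all genes tested.

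Of the 8 called mRNAs, 5 encode subunits of complex I. mt-Nd2 was at 1995 to 4773 TPM in sorted cells (median 2157) and at 930 to 1386 in cultured cells (median 1120). The groups did not overlap, and the log2 fold change was 1.17 (SE 0.171, adjusted p = 5.82e-05 in limma). mt-Nd4 ran from 2333 to 6086 TPM in sorted cells (median 2882) against 1318 to 1957 in cultured cells (median 1605), again without overlap, at a log2 fold change of 1.0 (SE 0.198, adjusted p = 0.000647). mt-Nd5, mt-Nd6 and mt-Nd4l rose by 0.82, 0.76 and 0.76 on the log2 scale. In contrast, mt-Nd1, at 2757 to 6221 TPM in sorted cells and 2366 to 3225 in cultured cells, overlapped and was not called (log2 fold change 0.29, adjusted p = 0.127). mt-Nd3 was not called either (0.28, adjusted p = 0.246). Whether these transcripts differed from the called ones in how far they moved was not tested.

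In complex IV, mt-Co1 rose by 0.68 (SE 0.153, adjusted p = 0.00164) and mt-Co2 by 0.86 (SE 0.181, adjusted p = 0.000976) on the log2 scale. In complex V, mt-Atp6 rose by 0.87 (SE 0.204, adjusted p = 0.00227), whereas mt-Atp8, whose reading frame it overlaps, did not (-0.08, SE 0.124, adjusted p = 0.591). mt-Cytb had a log2 fold change of 0.5 and an adjusted p of 0.0293, which falls short of the fold threshold. mt-Co3 was at -0.4 as deposited (adjusted p = 0.307). With the nuclear copies added, mt-Co2 (0.47) and mt-Atp6 (0.54) dropped under the fold threshold and mt-Co3 stood at 0.36, which left 6 mRNAs and both rRNAs called.

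The rRNAs gave the smallest p-value of the members in this comparison. mt-Rnr1 was at 352 to 666 TPM in sorted cells (median 519) and at 190 to 244 in cultured cells (median 220), with no overlap. Its log2 fold change was 1.16 (SE 0.0568, adjusted p = 3.41e-09). mt-Rnr2, at 418 to 1126 TPM in sorted cells and 328 to 514 in cultured cells, overlapped, with a log2 fold change of 0.67 (SE 0.119, adjusted p = 0.000257). The lowest sorted libraries for both rRNAs were those of control cells.

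Altogether 7 mRNAs (mt-Nd2, mt-Co1, mt-Co2, mt-Atp6, mt-Nd4, mt-Nd5, mt-Nd6) and mt-Rnr1 had all 6 sorted libraries above all 6 cultured libraries, as did 18.6% of the genes tested; with its copy added, mt-Co2 overlapped, at 6769 to 15837 TPM in sorted cells and 5470 to 7372 in cultured cells. Without the sorted sg495 replicate 1 library, 6 mRNAs and mt-Rnr1 were called: mt-Co1 (0.5), mt-Nd4l (0.51) and mt-Rnr2 (0.55) fell under the fold threshold, and the mRNA median was 0.51. In control libraries alone, 4 mRNAs (mt-Nd2, mt-Co2, mt-Nd4, mt-Nd5) and mt-Rnr1 were called, with mt-Nd2 at 1.11 and mt-Rnr1 at 0.78.

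Markers of handling moved with this comparison. Of 12 dissociation and stress genes tested, 10 were higher and 1 lower in sorted cells, with a median log2 fold change of 2.54; the immediate early genes Fosb, Fos and Egr1 stood at 7.69, 7.05 and 5.68. Fos was at 221 to 468 TPM in sorted cells, 13.5 to 27.4 in bulk tumors and 0.78 to 1.54 in cultured cells. Of 3 nucleus-retained RNAs tested, Neat1 (3.52) and Malat1 (2.84) were also higher in sorted cells. Their part in the mitochondrial result was not tested.

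Bulk tumors were compared with cultured cells in the same fit, and the cultured libraries are shared with the comparison above. Here 9 of 13 mRNAs were higher in bulk tumors and none lower, while 15.8% of all genes tested were called higher and 3.95% lower. The mRNA median log2 fold change was 1.04, against 0.017 for all genes. The called genes were mt-Nd1, mt-Nd2, mt-Nd4l, mt-Nd4, mt-Nd5 and mt-Nd6 of complex I, mt-Cytb, and mt-Co1 and mt-Co2 of complex IV. The same 9 mRNAs and mt-Rnr1 did not overlap between the groups, as did 20.9% of the genes tested in that direction.

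The largest log2 fold change was that of mt-Co2, at 7414 to 10665 TPM in bulk tumors (median 9156) and 2270 to 4811 in cultured cells (median 3307): 1.42 (SE 0.181, adjusted p = 2.04e-05 in limma). With its copy added, at 12694 to 16020 against 5470 to 7372, it was 1.17. mt-Nd6, from the other strand, was at 2216 to 3335 TPM in bulk tumors and 989 to 1289 in cultured cells, a log2 fold change of 1.21 (SE 0.152, adjusted p = 1.84e-05). mt-Cytb stood at 6148 to 9073 against 2877 to 4143 TPM and rose by 1.05 (SE 0.184, adjusted p = 0.000291). mt-Nd1, which was not called in sorted cells, rose by 0.73 (SE 0.16, adjusted p = 0.00161).

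The direction for mt-Co3 depended on its copy. As deposited, it was at 209 to 506 TPM in bulk tumors and 324 to 978 in cultured cells, and its log2 fold change was -0.72 (adjusted p = 0.0741). With Gm28437 added, the levels were 7566 to 9999 and 4950 to 5952, without overlap, and the log2 fold change was 0.63 (SE 0.101, adjusted p = 0.000158), which was called. Of the rest, mt-Atp6 (0.53), mt-Atp8 (0.38) and mt-Rnr1 (0.52, adjusted p = 5.46e-06 in limma) were under the fold threshold, mt-Nd3 was at 0.19 and mt-Rnr2 at -0.11. With its copy added, mt-Atp6 was at 15866 to 23516 TPM in bulk tumors and 11425 to 15103 in cultured cells, without overlap.

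Between bulk tumors and sorted tumor cells, which differ in the stromal cells kept and in digestion and handling, the rRNAs moved but no mRNA was called. mt-Rnr1 was at 284 to 351 TPM in bulk tumors, below every sorted library, a pattern shown by 7.09% of the genes tested. The groups nearly met, at 351.45 TPM in bulk sg495 replicate 2 and 351.63 in sorted control replicate 2. mt-Rnr1 fell by 0.64 on the log2 scale (SE 0.0568, adjusted p = 1.17e-06 in limma), and mt-Rnr2 fell by 0.79 (SE 0.119, adjusted p = 0.000137). Of all genes tested, 9.26% were called higher and 4.31% lower in bulk tumors. The mRNAs lay between -0.34 and 0.56, with a median of 0.28 against 0.053 for all genes. With the copies added they lay between -0.08 and 0.7.

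These counts depended on the libraries compared. Without sorted sg495 replicate 1, 6 mRNAs were higher in bulk tumors: mt-Cytb (0.78), mt-Co2 (0.73), mt-Nd1 (0.64), mt-Co1 (0.63), mt-Nd6 (0.62) and mt-Atp8 (0.61). Both rRNAs were still lower, at -0.59 and -0.67. In control libraries alone neither rRNA was called, with mt-Rnr1 at -0.27 (adjusted p = 0.0606) and mt-Rnr2 at -0.18 (adjusted p = 0.555), and mt-Nd6 was higher (0.78). Without either bulk control replicate 1 or sorted sg492 replicate 2, the total of called mitochondrial genes was 4 in place of 2. With the copies added and all libraries kept, mt-Co2 alone among the mRNAs was called (0.70).

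Cells other than melanoma cells moved with bulk tumors. All 7 skeletal muscle markers were higher there than in sorted cells, with summed levels of 134 to 291 TPM against 7.65 to 19.0, as were 13 of 14 tested leukocyte markers, all 7 tested fibroblast markers and all 5 tested erythrocyte markers. Ptprc, the pan-leukocyte surface marker, was at 5.74 to 26.2 TPM in bulk tumors and at most 0.15 in sorted cells. Of 12 stress genes tested, 10 were lower in bulk tumors than in sorted cells, led by Fosb (-6.4), Fos (-3.78) and Hspa1b (-3.25). Of 3 nucleus-retained RNAs, Meg3 (2.71) was higher and Malat1 (-1.03) lower. Against cultured cells, 7 stress genes were higher and 1 lower in bulk tumors, led by Fos (3.27), Egr1 (3.05) and Ier3 (-1.32), and Neat1 (3.26), Meg3 (2.75) and Malat1 (1.81) were higher. The part of these cells and RNAs in the mitochondrial differences was not tested.

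**Figure D4:**
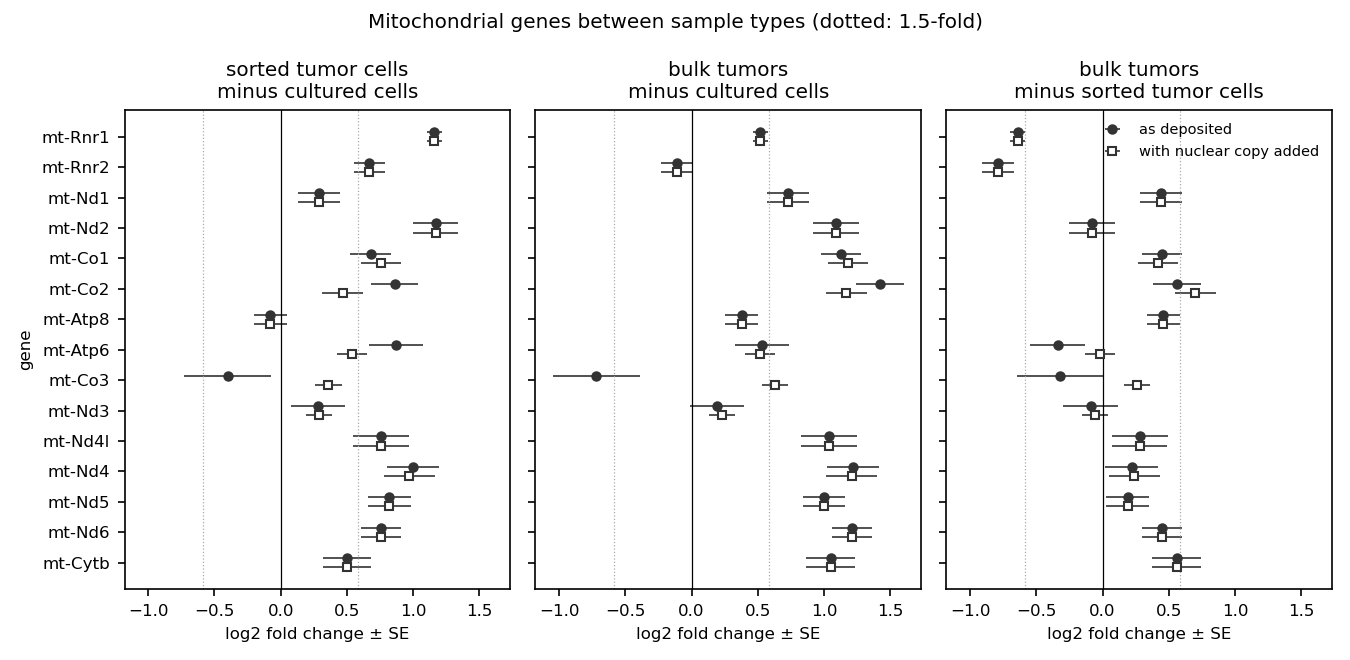
Log2 fold changes (points) with their standard errors (bars) of the 2 rRNAs and 13 mRNAs in the comparisons between sample types, with dotted lines at a fold of 1.5. mt-Rnr1 stands at 1.16 in sorted against cultured cells and at -0.64 in bulk tumors against sorted cells, and mt-Co2 at 1.42 in bulk tumors against cultured cells.

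Ratios within a library do not depend on how much of it is nuclear RNA. With the copies added, mt-Nd2 made up 3.67% ± 0.247 of the summed mRNA TPM in sorted cells, 2.81% ± 0.0935 in bulk tumors and 2.32% ± 0.108 in cultured cells (SD, n = 6 each). mt-Atp8 was 12.1% ± 0.597 in cultured cells, against 8.96% ± 0.406 in bulk tumors and 8.1% ± 1.1 in sorted cells. mt-Co2 was 16.3% ± 0.478 in bulk tumors, against 12.4% ± 0.661 and 12.7% ± 0.592 in sorted and cultured cells. Every pair of sample types differed by more than either SD for mt-Nd2, whereas bulk tumors and sorted cells lay within the sorted SD for mt-Atp8, and sorted and cultured cells within their SDs for mt-Co2.

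Ratios of neighbouring genes set some sample types apart and overlapped in others. The ratio of mt-Rnr2 to mt-Rnr1 in TPM was 1.51 to 2.11 in cultured cells, 1.01 to 1.41 in bulk tumors and 1.09 to 1.69 in sorted cells, where the highest was that of sg495 replicate 1 (1.09 to 1.3 without it). mt-Nd4l and mt-Nd4, whose reading frames overlap, had a ratio of 0.609 to 0.64 in cultured cells, 0.53 to 0.588 in bulk tumors and 0.488 to 0.586 in sorted cells. The ratio of light-strand mt-Nd6 to its neighbour mt-Nd5 was 1.26 to 1.45 in bulk tumors, 1.03 to 1.24 in sorted cells and 1.08 to 1.36 in cultured cells. mt-Atp8 to mt-Atp6 with its copy was 0.234 to 0.378 in sorted cells, below the 0.426 to 0.49 of cultured cells and the 0.383 to 0.457 of bulk tumors, which overlapped each other.

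Few nuclear genes for the same complexes passed the thresholds. Among all genes tested, 14.6% were called higher and 8.99% lower in sorted against cultured cells. These shares were 15.8% and 3.95% in bulk tumors against cultured cells, and 9.26% and 4.31% in bulk tumors against sorted cells. The counts of the gene lists below stand beside the same shares. Of 80 nuclear subunits of oxidative phosphorylation tested, of 83 listed, 2 were higher in sorted than in cultured cells, Cox6a2 (1.13) and Cox7a1 (1.11), and none was lower, with a median log2 fold change of -0.08. In bulk tumors against cultured cells the same 2 genes were higher, at 2.05 and 1.25, and the median was -0.03. Both encode forms of complex IV subunits typical of heart and skeletal muscle. Cox6a2 was at 2.76 to 5.8 TPM in bulk tumors, 0.96 to 2.49 in sorted cells and at most 0.54 in cultured cells, and the muscle creatine kinase Ckm at 13 to 33.7, 1.76 to 3.05 and 0.22 to 0.72. None of the 36 nuclear complex I subunits was called in any of the 3 comparisons. In bulk tumors against sorted cells, Cox6a2 (0.92) was higher and Atp5g2, a subunit c gene of ATP synthase, lower (-0.75, adjusted p = 0.0476).

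Of 11 genes of mitochondrial transcription, 2 were lower in sorted than in cultured cells, beside 8.99% of all genes tested. Polrmt, the polymerase, was at 13.3 to 19.2 TPM in sorted cells and 20.4 to 33.2 in cultured cells, and fell by 0.64 on the log2 scale (SE 0.103, adjusted p = 0.000131 in limma). Mrpl12, a ribosomal protein reported to bind the polymerase, fell by 0.68. Tfam, at 80.7 to 91.1 against 72.1 to 82.1 TPM, differed by 0.16 (adjusted p = 0.0109), under the fold threshold. In bulk tumors none of the 11 was called against either other sample type. Lower Polrmt and higher mitochondrial mRNA thus stood side by side in sorted cells.

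Most genes that process and stabilise the transcripts were not called. Beside them, 14.6% of all genes tested were called higher and 8.99% lower in sorted than in cultured cells. Lrpprc was at -0.03 (adjusted p = 0.51), Slirp at -0.32 (adjusted p = 4.52e-05) and Mtpap at -0.01 (adjusted p = 0.844) in sorted against cultured cells. Of 21 genes of RNA processing and decay, Ptcd1 (-0.76), Fastkd5 (-0.71) and Fastkd3 (-0.63) were lower in sorted cells and none was higher. Fastkd5, which acts on mRNA ends not flanked by a tRNA, was higher in bulk tumors than in sorted cells by 0.76. Of 77 mitochondrial ribosomal proteins, 6 were lower and 1, Mrpl24 (0.68), higher in sorted than in cultured cells, with Mrpl18 (-1.16) and Mrpl51 (-0.81) lowest and a median of -0.27. Against cultured cells, bulk tumors had Mrpl24 higher (0.62) and Mrpl18 lower (-0.64), and none was called between bulk tumors and sorted cells.

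Of 12 genes of mitochondrial DNA replication, Tk2 (0.62) and Primpol (0.64) were higher and Dna2 (-0.62) lower in sorted than in cultured cells. Beside these and the regulators below, 14.6% of all genes tested were called higher and 8.99% lower there. Dna2 (0.63) was higher in bulk tumors than in sorted cells. Among 10 tested regulators of mitochondrial biogenesis, Ppargc1a, which encodes the coactivator PGC-1α, had the largest log2 fold change. It was at 124 to 189 TPM in sorted cells, 71.4 to 121 in bulk tumors and 25.2 to 31.1 in cultured cells, with no overlap. The log2 fold changes were 2.41 for sorted against cultured cells (SE 0.0791, adjusted p = 1.21e-10) and 1.65 for bulk tumors against cultured cells (SE 0.0791, adjusted p = 1.76e-09). Myc was higher (1.39) and Ppard lower (-0.66) in sorted than in cultured cells, and Ppargc1a (-0.76) and Myc (-0.85) were lower in bulk tumors than in sorted cells.

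RNAs without long poly(A) tails were listed because the rRNA values depend on tail capture. Of 10 tested, the histone genes Hist1h2bc (2.3) and Hist1h1e (1.84) were higher in sorted than in cultured cells, beside 14.6% of all genes tested. The RNA components Rmrp (-0.92) and Rpph1 (-2.11) were lower, beside 8.99%. In bulk tumors against sorted cells, Hist1h1e (-1.88), Hist1h2bc (-1.39) and Rpph1 (-1.13) were lower and none was higher. Against cultured cells, bulk tumors had Hist1h2bc (0.91) and Rn7sk (0.68) higher and Rpph1 (-3.24), Rn7s1 (-0.74) and Rn7s2 (-0.74) lower. Their part in the rRNA differences was not tested.

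The guides address what loss of Nr2f6 does to these transcripts in each sample type. No mitochondrial gene was called in any of the 6 comparisons of a guide with control by limma at the stated thresholds. Among all genes tested, sg495 called 0.0293% in bulk tumors, 0.899% in sorted cells and 2.77% in cultured cells, and sg492 called 0.0%, 0.0388% and 0.05%. At an unadjusted p under 0.05, sg495 gave 0 of 15 mitochondrial genes in bulk tumors, 2 in sorted cells and 10 in cultured cells, beside 15.7%, 15.6% and 27.8% of all genes. For sg492 these counts were 1, 2 and 1, beside 8.3%, 7.13% and 10.5%.

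In cultured cells, all 13 mRNAs lay above control with sg495, with log2 fold changes of 0.12 to 0.61 and a median of 0.35 against -0.001 for all genes. The highest was that of mt-Co3 (0.61, SE 0.567), which was 0.17 with its copy, and with the copies added the range was 0.1 to 0.41 and the median 0.32, with mt-Co2 at 0.19 and mt-Atp6 at 0.34. The gene nearest to a call was mt-Rnr2, at 333 and 328 TPM in control, 342 and 407 with sg492 and 514 and 438 with sg495. Both sg495 libraries lay above both controls, and the log2 fold change of 0.52 with an adjusted p of 0.0271 in limma fell short of the fold threshold. With sg492, 12 of 13 mRNAs lay above 0, with a median of 0.17.

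In sorted cells, the 13 mRNAs also lay above 0 with sg495, with a median of 0.45, which was -0.07 without replicate 1. With the copies added and replicate 1 kept, the median was 0.47 and the range 0.2 to 0.67. mt-Rnr1 was at 383 and 352 TPM in control, 491 and 548 with sg492 and 666 and 551 with sg495. All edited libraries lay above both controls. The log2 fold change was 0.72 with sg495 (SE 0.115, adjusted p = 0.056 in limma) and 0.5 with sg492 (adjusted p = 0.561), neither called. mt-Rnr2 followed the same order, at 418 and 431, 576 and 710, and 1126 and 683 TPM, and stood at 1.04 for sg495 on the log2 scale (adjusted p = 0.119). Without sg495 replicate 1 the log2 fold changes were 0.59 for mt-Rnr1 and 0.68 for mt-Rnr2. When all 18 libraries shared 1 estimate of the spread, both rRNAs were called for sg495 in sorted cells, with adjusted p-values of 0.000701 and 0.00812 in limma. That fit included replicate 1 and was not repeated without it.

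In bulk tumors, the median mRNA log2 fold change was 0.01 for sg495 and -0.04 for sg492. The largest was that of mt-Co3 with sg492 (0.95, adjusted p = 0.508), and with Gm28437 added it was -0.05.

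The sg495 effect on mt-Rnr1 was larger in sorted than in cultured cells by 0.59 on the log2 scale (SE 0.139, adjusted p = 0.0373 in limma), the effects being 0.72 and 0.13. Of all genes tested, 2.51% were called in this test of a difference between effects. Without sorted sg495 replicate 1 it was 0.45 (adjusted p = 0.0941), and it was not called either without any 1 of the cultured control, cultured sg495 or sorted control libraries. Stress genes moved in the same test: 11 of 12 lay above 0, with a median of 0.71 against -0.028 for all genes, and Ier3 (1.73, adjusted p = 0.00809) and Egr1 (1.08, adjusted p = 0.0269) were called. The median of 3 nucleus-retained RNAs was 1.2, and Dna2 was called lower (-0.67). In the guide comparisons, Egr1 (1.15) was higher with sg495 in sorted cells, and Ier3 (-1.43), Jund (-0.79), Atf3 (-0.69) and Neat1 (-0.67) were lower with sg495 in cultured cells. The part of these genes in the mt-Rnr1 difference was not tested. No other mitochondrial gene was called in this test. None was called in the tests of bulk tumors against sorted cells, where 0.122% of all genes were called, or of bulk tumors against cultured cells, where 1.76% were called. Among the nuclear genes listed, Egr1 (-1.39) was called in the former, and Ier3 (1.84) and the complex I subunit gene Ndufv3 (0.62, adjusted p = 0.00649) in the latter. At an unadjusted p under 0.05 these tests gave 2 and 0 of the 15, beside 16% and 15.3% of all genes.

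**Figure D5:**
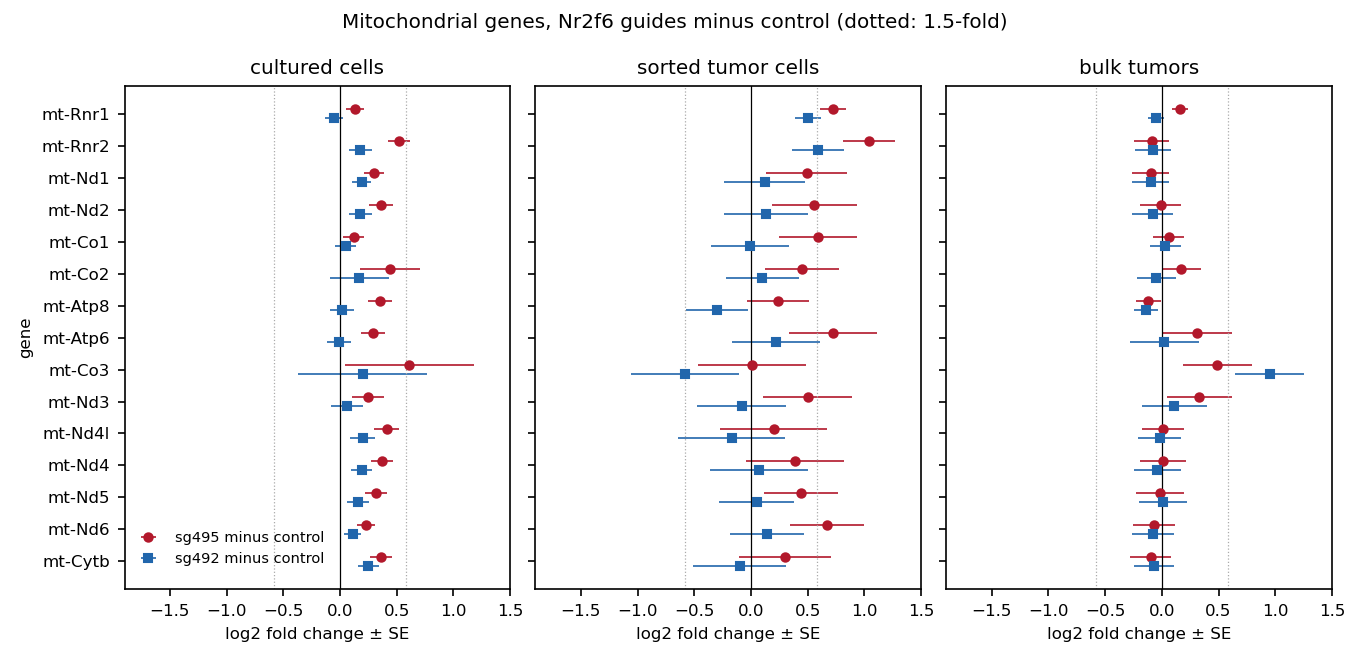
Log2 fold changes (points) with their standard errors (bars) of each guide against control in each sample type, with dotted lines at a fold of 1.5. The cultured sg495 points of the mRNAs lie between 0.12 and 0.61 as deposited, all to the right of 0, and those of bulk tumors have a median of 0.01.

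The IgG and anti-PD1 libraries differed in make-up from the others, so their levels are given on their own. Their summed leukocyte markers were 7791 to 12805 TPM and their melanocyte markers 1700 to 5204. Mitochondrial genes took 10.2% and 11.4% of TPM in the IgG libraries and 21.9%, 8.63% and 16.6% in the anti-PD1 libraries, so that the groups overlapped. In most mRNAs anti-PD1 replicates 1 and 3 lay above the IgG libraries by more than replicate 2 did. mt-Nd1, for example, was at 5302 and 5380 TPM with IgG and at 16107, 6868 and 13329 with anti-PD1, and mt-Cytb at 8463 and 7839 against 24577, 9219 and 18887.

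No mitochondrial gene was called between anti-PD1 and IgG by limma, and 0.0% of all 13418 genes were. At an unadjusted p under 0.05 there were 9 of 15, beside 7.18% of all genes, and the smallest adjusted p was 0.585. mRNA log2 fold changes ran from -0.54 (mt-Atp6) to 1.6 (mt-Nd4l), with a median of 0.89 and 11 of 13 above 0. As deposited, mt-Nd4l was at 1738 and 1288 TPM with IgG and at 5746, 3162 and 5192 with anti-PD1. Its copy Gm10222 held 26.9% and 39.3% of the pair with IgG and 5.51%, 0% and 0% with anti-PD1. With this copy added, the levels were 2377 and 2120 against 6081, 3162 and 5192. The highest log2 fold change of any mRNA with the copies added was 1.09. With the copies added mt-Atp6 turned to 0.45, and all 13 mRNAs lay at 0.34 or higher.

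The rRNAs set these libraries apart from the 3 sample types. mt-Rnr1 was at 2016 and 5576 TPM with IgG and at 1505, 2184 and 2052 with anti-PD1, and mt-Rnr2 at 3349 and 8792 against 2982, 3316 and 4194. Both rRNAs together held 0.537% and 1.44% of TPM with IgG and 0.449% to 0.625% with anti-PD1, against at most 0.179% in the other 18 libraries. Rn7sk, an abundant RNA without a poly(A) tail, was at 15 to 46.9 TPM there and at 1.47 to 7.42 in the others. Other RNAs of that list did not follow it. Rpph1 was at 1.82 to 8.79 TPM there and at 15 to 32.6 in cultured cells, and Rmrp at 0 to 4.38 against 0 to 4.31 in the others. The list summed to 139 to 420 TPM there and to 90.8 to 252 in the others, which overlapped. Nuclear subunits of oxidative phosphorylation summed to 15375 to 18552 TPM in these 5 libraries and to 26677 to 31445 in the 18, and Tfam was at 16.9 to 43.3 against 70.2 to 91.1. Summed mitochondrial mRNA took 9.66% and 9.99% of TPM with IgG and 8.08% to 21.5% with anti-PD1, against 2.5% to 7.84% in the 18. This sum and the nuclear respiratory transcripts thus lay in opposite directions between these libraries and the rest. The mRNAs without an annotated near-identical copy did not separate with IgG. Their share was 3.29% and 3.0% with IgG and 4.09% to 7.71% with anti-PD1, against 1.33% to 3.57% in the 18. Since cell make-up and any difference in how the libraries were made cannot be told apart, no test between them was run.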

How the data were processed

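RNA was poly(A) selected, made into NEBNext Ultra Directional libraries and sequenced as single reads of 75 bases, at 23000000 to 31000000 reads per sample by the methods. The authors trimmed reads with Cutadapt 2.3, aligned them to mm10 with STAR 2.7.0d and quantified genes with RSEM 1.3.1 (tool versions also stand in the submitters' processing notes), and deposited 1 table of TPM. The authors tested estimated counts with DESeq2, which were not used here, so no counting interval is given. Between 11925 and 13899 genes per library had at least 1 TPM.

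Genes averaging 1 TPM or more were tested as log2(TPM + 1) with limma 3.58.1 in R 4.3.3 (eBayes with trend, 2-sided), and a fold change on this scale understates that of low genes. Guides were compared within the 6 libraries of a sample type, sample types and differences of the sg495 effect in all 18, and anti-PD1 with IgG in 5. P-values were adjusted by Benjamini-Hochberg over all genes tested, and genes were called at an adjusted p under 0.05 and a fold of at least 1.5. Sequences and positions came from GENCODE M21 on GRCm38, which holds 47224 (99.1%) of the genes; nuclear copies were found with BLAST 2.17.0 (at least 80% identity over 100 bases). Copies were added to their gene weighted by length. Scripts were tested on simulated data.

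All mt- genes and their copies were named. From the lists (respiratory subunits, transcription, processing, replication, ribosome, biogenesis, tails, nuclear retention, stress), all called members were named when 5 or fewer and otherwise the 3 largest, plus Polrmt, Tfam, Lrpprc, Slirp and Mtpap; cell type markers were given as lists, with Ckm and Ptprc named after values were seen. Members and lists were chosen with earlier results of these data known. Alternatives covered scaling, filter, pseudocount, variance model, replicate block and left-out libraries.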

Additional observations from a re-analysis of the deposited data

Results flagged for a closer look

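The sg495 effect on mt-Rnr1 differed between sorted tumor cells and cultured cells by a test of the difference itself: 0.59 on the log2 scale (SE 0.139, adjusted p = 0.0373 in limma). In sorted cells both sg495 libraries (666 and 551 TPM) lay above both controls (383 and 352), and in cultured cells the values were 244 and 226 against 210 and 217. Over the alternatives the difference ran from 0.45 to 0.72 and its adjusted p from 0.0181 to 0.141, so it kept its sign but often lost the call. Stress genes moved in the same test (Ier3 1.73 and Egr1 1.08 called, median 0.71 over 12). Egr1 was higher with sg495 in sorted cells (1.15), and Ier3 (-1.43), Jund (-0.79), Atf3 (-0.69) and Neat1 (-0.67) were lower with sg495 in cultured cells. Their part in the mt-Rnr1 difference was not tested.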

How the results depend on the processing

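Between sorted and cultured cells, 10 mitochondrial genes were called, 5 in control libraries alone, and 7 to 11 when 1 library was left out (7 without sorted sg495 replicate 1). For bulk tumors against sorted cells the count of 2 became 8 with no fold threshold and 1 in control libraries alone (mt-Nd6, with both rRNA calls lost), and ran from 2 to 8 with 1 library left out: 8 without sorted sg495 replicate 1, and 4 without either bulk control replicate 1 or sorted sg492 replicate 2. For bulk tumors against cultured cells it was 9, and 9 to 10 with 1 library left out. The 1 call for a larger sg495 effect in sorted than in cultured cells became 0 with no expression filter, quantile normalization, copies added with scaling to the rest, eBayes without trend, only the libraries compared, and the replicate block. It ran from 0 to 2 with 1 library left out, with 2 without sorted sg495 replicate 2, and 0 without any 1 of the cultured control, cultured sg495 or sorted control libraries or sorted sg495 replicate 1. For the sg495 effect in bulk tumors against sorted cells, leaving out 1 library gave 0 to 1 (1 without sorted sg495 replicate 2). The count of 0 for sg495 in cultured cells became 1 with no fold threshold, and that in sorted cells 1 with a minimum of 5 TPM and 2 with all 18 libraries in 1 model. Apart from the alternative's own construction, the cause was not tested.

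Same-numbered libraries of different groups within a sample type correlated in their deviations from group means at -0.126 to 0.0507 in the 18 libraries. The correlations were 0.133 and -0.00773 in the IgG and anti-PD1 libraries. No clear pairing by number was thus seen within these sets, although so few libraries cannot exclude it. Same-numbered libraries of different sample types, such as bulk tumors and sorted cells, were not compared, so pairing by tumor was not tested. The replicate block gave 1 call for anti-PD1 against IgG, mt-Nd4l as deposited (1.51, adjusted p = 0.00563 in limma), in place of 0. In that fit 1.55% of all genes tested were called higher and 2.28% lower, against 0.0% without the block. Since 1 anti-PD1 library had no same-numbered IgG library, the block left few libraries from which to estimate the spread.

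With nuclear copies, mean mitochondrial shares were 8.81% in bulk tumors, 7.44% in sorted cells, 5.0% in cultured cells, 16% with IgG and 24.9% with anti-PD1. The IgG mRNA share was 10.1% of long RNA, against 9.83% of all TPM. Signs turned for mt-Atp8 in bulk tumors against cultured cells (-0.14 with quantile normalization), for mt-Co3 there (0.63 with copies, 0.69 with copies and scaling) and for mt-Co1 in the sg495 effect in sorted against cultured cells (-0.08 to 1.01 with 1 library left out, lowest without sorted sg495 replicate 1). Of the other values of single genes, 876 kept direction and side of the threshold, 28 lost it and 40 gained it. TPM carry no depth, and rRNA values rest on what poly(A) selection lets through.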
